A study of Mus musculus with 12 samples.

Results

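The genes described here are 10 genes of the ATF4 integrated stress response, Atf4, Atf5, Ddit3, Ddit4, Trib3, Asns, Chac1, Sesn2, Psat1 and Phgdh. They were taken by symbol from the raw count tables of mouse small intestinal organoids, which list 55335 entries each. All 10 were found, on 11 rows, because Ddit3 has a second entry that held 0 counts in all 12 libraries. Organoids are epithelial cultures grown in a gel, and RNA was measured by bulk RNA-seq in 4 groups of 3 libraries.

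The RANKL libraries came from organoids given RANKL at 100 ng/mL for 6 days. RANKL is the TNF-family cytokine that induces microfold (M) cells, epithelial cells that carry luminal antigens to immune tissue. Per the labels, M cell cultures were first kept for 3 days with the GSK3 inhibitor CHIR99021 (3 µM) and valproic acid (1.5 mM), which inhibits histone deacetylases. A day in ENR medium, named for EGF, Noggin and R-spondin, followed (1 day). The ENR control libraries came from organoids kept in ENR medium for 6 days. Their sample names begin with CVENR, and no label says whether they had also received CHIR99021 and valproic acid. The RANKL+CSRM617 libraries came from 6 days of RANKL with 40 µM CSRM617, a small molecule reported to inhibit ONECUT2, a homeodomain transcription factor. Their reference was RANKL II, a separate set of RANKL-treated organoids of the same duration. All 4 groups came from organoids of a female Lgr5GFPDTR/+ mouse, which carries GFP and the diphtheria toxin receptor at the stem cell gene Lgr5, and ENR medium contained the antioxidant N-acetylcysteine. Replicate numbers 1 to 3 are labelled as separate experiments, and all come from 1 line, so p-values measure at most the spread between cultures of that line. Between libraries of a group, chi-square per degree of freedom is near 1 where only counting noise separates them. It was 1.09 to 1.39 in RANKL II, 1.16 to 4.68 in RANKL+CSRM617, 2.13 to 3.9 in RANKL and 5.49 to 33.2 in ENR control. The RANKL II libraries thus differed little beyond counting noise, and p-values with CSRM617 rest partly on that small spread.

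The integrated stress response is a shared output of several stress signals. The kinases PERK, GCN2, PKR and HRI phosphorylate the initiation factor eIF2, which slows most translation and favours translation of the transcription factor ATF4. ATF4 protein therefore can change without its mRNA. With partners of the bZIP family, ATF4 activates genes of amino acid synthesis and uptake, redox defence and, with CHOP, cell death, and in the intestinal epithelium the pathway is known for its part in secretory cell stress and amino acid supply. The 10 genes cover transcription factors (Atf4, Atf5 and Ddit3, which encodes CHOP), inhibitors of signalling (Trib3, Ddit4 and Sesn2), the glutathione-degrading enzyme gene Chac1, and enzymes of asparagine and serine synthesis (Asns, Phgdh and Psat1).

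ATF4 is known to bind C/EBP-ATF response elements of the form TGATGNAA. Promoter windows of RefSeq for GRCm38.p6, from 250 bases before to 50 bases after the start, were found for all 10 genes and searched on both strands. Of the 10 genes, 3 held TGATGNAA, which was present in 3.97% of the 32851 windows, or 4.51% of the 27025 genes. A match describes the window and does not by itself show binding, which was not tested here. The narrower form TGATGCAA, contained in TGATGNAA, was found in the window of 1 of these 3 genes, Chac1, and in 0.895% of all windows. The windows of the 3 genes with a match are shown from 250 bases before to 25 bases after the start. They run 5′ to 3′ on the gene's strand, with the matched bases in capitals. They are shown because these genes share the motif, while with CSRM617 Trib3 was called higher and Asns lower. The Trib3 call was lost with offsets for transcript GC content and without the third RANKL II library. The Chac1 window lies at chr2:119350992-119351266 on the plus strand, with its match beginning at −193, counted from the start, and read on the opposite strand. The Asns window is at chr6:7693185-7693459 on the minus strand, with its match at −23 on the same strand. The Trib3 window is at chr2:152344036-152344310 on the minus strand, with its match at 15 on the opposite strand.
Chac1: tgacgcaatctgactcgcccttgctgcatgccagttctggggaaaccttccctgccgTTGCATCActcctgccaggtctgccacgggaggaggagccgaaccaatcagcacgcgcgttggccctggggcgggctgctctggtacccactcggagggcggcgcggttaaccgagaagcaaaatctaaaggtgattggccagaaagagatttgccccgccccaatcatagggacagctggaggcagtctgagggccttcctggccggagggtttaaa
Asns: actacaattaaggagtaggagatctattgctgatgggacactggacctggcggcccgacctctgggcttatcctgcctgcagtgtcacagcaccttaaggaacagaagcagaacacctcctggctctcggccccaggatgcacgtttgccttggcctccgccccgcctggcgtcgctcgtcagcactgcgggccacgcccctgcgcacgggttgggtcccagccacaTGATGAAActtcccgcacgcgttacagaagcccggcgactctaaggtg
Trib3: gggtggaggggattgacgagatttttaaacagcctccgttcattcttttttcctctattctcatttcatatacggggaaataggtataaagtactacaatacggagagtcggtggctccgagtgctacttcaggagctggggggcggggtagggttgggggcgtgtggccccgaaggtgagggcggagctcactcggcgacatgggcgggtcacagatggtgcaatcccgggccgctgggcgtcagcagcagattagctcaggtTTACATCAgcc

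Genes were placed on GRCm38 with GENCODE. Atf4 lies at chr15:80255184-80257541, Atf5 at chr7:44812256-44816658, Ddit3 at chr10:127290774-127296288 and Ddit4 at chr10:59949669-59951834. Trib3 lies at chr2:152337422-152344032, Asns at chr6:7675169-7693254 and Chac1 at chr2:119351229-119354381. Sesn2 lies at chr4:132492032-132510501, Psat1 at chr19:15904678-15947337 and Phgdh at chr3:98313170-98339990. All are annotated as protein-coding. Exons of Ddit3 overlap those of Mars on the opposite strand by 68 bases (3.97% of its exon bases), and exons of Atf5 overlap those of Nup62 and Il4i1 by 82 bases (4.11%). A second Ddit3 gene in GENCODE lies wholly within exons of the first on the same strand, over 105 bases (6.13% of the first gene's exon bases). How counting treated strand and shared stretches is not stated. Reads there may have been given to either gene or left out.

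Total counts ran from 6351155 to 7719157 in RANKL and from 5795541 to 7577492 in ENR control, and from 10225102 to 14041947 in RANKL+CSRM617 and from 8669153 to 11241811 in RANKL II. Counts on ribosomal RNA loci made up 9.712% to 10.7% in RANKL, 21.87% to 35.52% in ENR control, 15.27% to 15.77% in RANKL+CSRM617 and 6.438% to 6.714% in RANKL II. Mitochondrial genes made up 2.518% to 2.888% in RANKL, 5.429% to 7.958% in ENR control, 8.613% to 11.04% in RANKL+CSRM617 and 6.039% to 6.112% in RANKL II. All 8 epithelial markers were detected in every group, and 8 immune markers summed to at most 4.48 CPM (counts scaled to library size), with Adgre1 at 0 in all libraries. The 8 stromal and endothelial markers summed to 10.6 to 14.1 CPM in RANKL, 6.13 to 7.3 CPM in ENR control, 13.5 to 15 CPM in RANKL+CSRM617 and 9.79 to 11.7 CPM in RANKL II, with Col3a1, Col1a2 and Cdh5 at 0 in all libraries. Of these, Pdgfrb was called higher with RANKL (10.64 ± 1.93 CPM against 3.604 ± 0.648 CPM in ENR control) and with CSRM617 (12.46 ± 0.755 CPM against 9.713 ± 1.1 CPM in RANKL II). In the organoids with RANKL, 10 M cell markers summed to 1180 to 1218 CPM, against 207 to 246 CPM in ENR control. Stem cell markers summed to 927 to 1254 CPM with RANKL, against 2491 to 2837 CPM in ENR control, but were split. Of these 8 markers, 5 were called lower, 2 higher and 1 neither, against 28.0% lower and 28.7% higher over all genes tested. Ascl2 was among the higher ones (27.98 ± 5.35 CPM against 11.97 ± 2.1 CPM in ENR control). With CSRM617, 10 mature enterocyte markers summed to 9323 to 9642 CPM, against 3760 to 3820 CPM in RANKL II. In bulk samples, fewer cells of a type and less RNA per cell cannot be told apart, and the part of these shifts in the results on stress genes was not tested.

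CPM values were scaled with TMM factors within each table. Between genes, levels were compared per kilobase of exon (RPKM). On that scale Atf4, with group means from 38.8 to 61.2 RPKM, and Ddit4, with 20.9 to 51.6 RPKM, were the most abundant of the 10 transcripts. Chac1, at 0.388 to 1.02 RPKM, and Trib3, at 1.11 to 2.15 RPKM, were the least abundant. The remaining transcripts had group means between 3.66 RPKM and 17.5 RPKM.

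**Figure D1:**
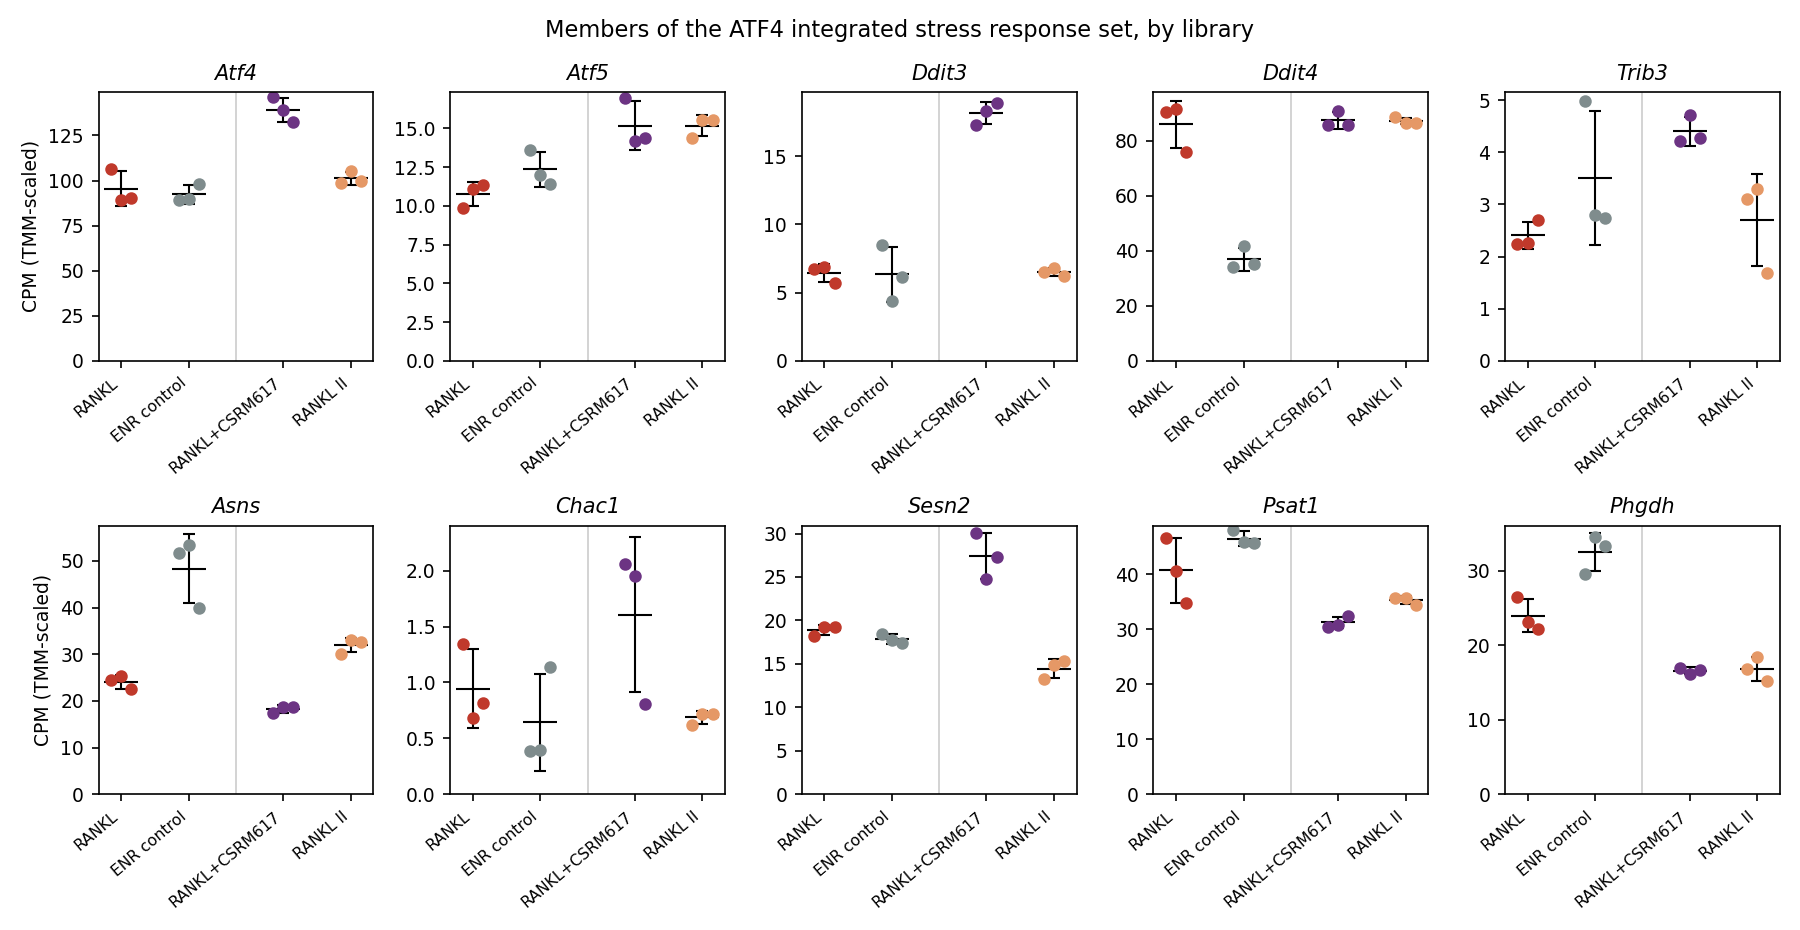
CPM (vertical axes, from 0) of each of the 10 genes in every library, with group means as horizontal marks and SD as bars (n = 3 each). RANKL and ENR control share 1 count table, and RANKL+CSRM617 and RANKL II share the other. Ddit4 is high in all groups with RANKL and Ddit3 stands apart with CSRM617, while Asns is highest in ENR control.

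The first comparison asked how 6 days of RANKL changed these genes relative to ENR medium. Ddit4, which encodes REDD1, an inhibitor of mTORC1, was 2.31-fold higher with RANKL, and Asns, which encodes asparagine synthetase, was 2.02-fold lower. Phgdh, the gene of the first enzyme of serine synthesis, was 1.36-fold lower. The transcription factor genes Atf4, Atf5 and Ddit3 did not pass the test in either direction. By edgeR's quasi-likelihood test with Benjamini-Hochberg adjustment over the 13570 genes tested, 1 of the 9 genes tested was called higher, 2 were called lower and 6 were not called. Over all genes 56.7% were called at an adjusted p under 0.05, 28.7% higher and 28.0% lower. The median log2 fold change was −0.19 over the 9 genes and 0.00 over all genes tested. The libraries of the groups did not overlap for 5 of the 9 genes, against 63.3% of all genes tested.

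Atf4 had 106.6, 89.4 and 90.19 CPM in RANKL organoids, against 89.09, 89.56 and 98.25 CPM in ENR control. The groups overlapped, and the log2 fold change was 0.05 (SE 0.0919, adjusted p = 0.658 by edgeR, 95% interval −0.14 to 0.25). Atf5, a relative of ATF4 that is likewise controlled by translation, had 9.877, 11.08 and 11.37 CPM with RANKL, against 13.63, 11.99 and 11.42 CPM in ENR control. All RANKL values lay below all control values, but the difference did not pass the test (log2 fold change −0.20, SE 0.149, adjusted p = 0.266). Ddit3 had 6.734, 6.894 and 5.687 CPM with RANKL, against 8.448, 4.398 and 6.169 CPM in ENR control. The RANKL values lay inside the spread of the controls, at a log2 fold change of 0.07 with a 95% interval from −0.42 to 0.56.

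Among the signalling inhibitors, Ddit4 had 90.35, 91.54 and 75.97 CPM in RANKL organoids, against 33.98, 41.71 and 35.19 CPM in ENR control. The groups were well apart, with a log2 fold change of 1.21 (SE 0.107, adjusted p = 1.36e-07 by edgeR) and an interval from 0.98 to 1.44. Sesn2, whose protein, sestrin 2, senses leucine and restrains mTORC1, had 18.18, 19.21 and 19.23 CPM with RANKL, against 18.43, 17.72 and 17.37 CPM in ENR control. These values overlapped, and the log2 fold change of 0.08 had an interval from −0.17 to 0.33. Trib3, which encodes a pseudokinase that binds ATF4 and CHOP, had 2.245, 2.26 and 2.708 CPM with RANKL, against 4.992, 2.799 and 2.742 CPM in ENR control. The first control library was the high one, and the log2 fold change of −0.54 (SE 0.293) had an adjusted p of 0.13 by edgeR. Chac1 was too low to be tested, at 12, 6 and 6 counts with RANKL and 2, 3 and 5 counts in ENR control. Without the filter on low counts its log2 fold change was 0.69 (SE 0.587, adjusted p = 0.433 by edgeR).

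Among the amino acid synthesis genes, Asns had 24.47, 25.32 and 22.48 CPM in RANKL organoids, against 51.65, 53.44 and 39.99 CPM in ENR control. No RANKL library came near the lowest control, and the log2 fold change was −1.01 (SE 0.119, adjusted p = 3e-06 by edgeR). Phgdh had 26.49, 23.17 and 22.21 CPM with RANKL, against 29.57, 34.52 and 33.36 CPM in ENR control. Its log2 fold change was −0.44 (SE 0.114, adjusted p = 0.00391 by edgeR), and the groups did not overlap. Psat1, the gene of the next enzyme of serine synthesis, had 46.69, 40.69 and 34.8 CPM with RANKL, against 48, 45.85 and 45.7 CPM in ENR control. The RANKL values were more scattered, and the log2 fold change of −0.19 did not pass the test (adjusted p = 0.162). Without the first RANKL library it was −0.30 and passed (adjusted p = 0.0447).

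The second comparison asked how CSRM617 changed the same genes in organoids that all received RANKL. Ddit3 was 2.80-fold higher with CSRM617, Sesn2 had a log2 fold change of 0.90 and Atf4 one of 0.46. Asns was 1.74-fold lower, while Ddit4, Atf5 and Phgdh did not pass the test. Of the 9 genes tested, 4 were called higher, 2 were called lower and 3 were not called. Over all 14167 genes tested, 71.4% were called, 35.2% higher and 36.2% lower, so calls of either kind were common in this table. The median log2 fold change was 0.01 over the 9 genes and −0.02 over all genes. The groups did not overlap for 6 of the 9 genes, against 73.1% of all genes tested.

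Atf4 had 146.1, 139.3 and 132.7 CPM in RANKL+CSRM617, against 98.43, 105.2 and 99.87 CPM in RANKL II. Each CSRM617 library exceeded each RANKL II library, with a log2 fold change of 0.46 (SE 0.0413, adjusted p = 1.98e-13 by edgeR). Ddit3 had 17.31, 18.32 and 18.88 CPM with CSRM617, against 6.527, 6.8 and 6.247 CPM in RANKL II. Both groups were tight and far apart, with a log2 fold change of 1.49 (SE 0.111, adjusted p = 5.86e-16 by edgeR) and an interval from 1.26 to 1.71. Atf5 had 16.99, 14.17 and 14.36 CPM with CSRM617, against 14.4, 15.56 and 15.54 CPM in RANKL II. These groups overlapped, and both averaged 15.17 CPM, at a log2 fold change of −0.02 with an interval from −0.21 to 0.18.

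Sesn2 had 30.08, 24.76 and 27.27 CPM in RANKL+CSRM617, against 13.26, 14.84 and 15.3 CPM in RANKL II. The groups did not overlap, and the log2 fold change was 0.90 (SE 0.089, adjusted p = 3.17e-12 by edgeR). Trib3 had 4.219, 4.724 and 4.275 CPM with CSRM617, against 3.108, 3.297 and 1.682 CPM in RANKL II. The third RANKL II library was the low one. The log2 fold change was 0.76 (SE 0.209, adjusted p = 0.00131 by edgeR), and without that library it was 0.47 and did not pass (adjusted p = 0.0565). Ddit4 had 85.69, 90.97 and 85.59 CPM with CSRM617, against 88.48, 86.54 and 86.33 CPM in RANKL II. The groups overlapped, with a log2 fold change of 0.01 (SE 0.0445) and an interval from −0.08 to 0.10. Chac1 had 19, 24 and 10 counts with CSRM617, against 6, 7 and 9 counts in RANKL II, and was below the filter. Each CSRM617 library, at 2.056, 1.955 and 0.8067 CPM, was above the RANKL II libraries, at 0.6217, 0.7212 and 0.7208 CPM. Without the filter on low counts its log2 fold change was 1.18 (SE 0.374, adjusted p = 0.00502 by edgeR), with an interval from 0.45 to 1.91. DESeq2, which also tested it, did not call it (log2 fold change 1.22, adjusted p = 0.0583).

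Asns had 17.31, 18.73 and 18.8 CPM in RANKL+CSRM617, against 30.15, 32.97 and 32.6 CPM in RANKL II. The groups did not overlap, and the log2 fold change was −0.80 (SE 0.0768, adjusted p = 1.52e-12 by edgeR). Phgdh had 16.99, 16.13 and 16.7 CPM with CSRM617, against 16.78, 18.44 and 15.22 CPM in RANKL II, which overlapped at a log2 fold change of −0.01 (SE 0.0935). Psat1 had 30.51, 30.87 and 32.35 CPM with CSRM617, against 35.64, 35.75 and 34.44 CPM in RANKL II. Its log2 fold change was −0.17 (SE 0.0658, adjusted p = 0.0195 by edgeR). The call was lost without the first or the second RANKL II library (adjusted p = 0.0573 and 0.0584) and without the first or the second CSRM617 library (adjusted p = 0.0796 and 0.0798). DESeq2 did not call it either (adjusted p = 0.158). Ddit3, Sesn2 and Atf4 were higher while Asns was lower in the same CSRM617 libraries.

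**Figure D2:**
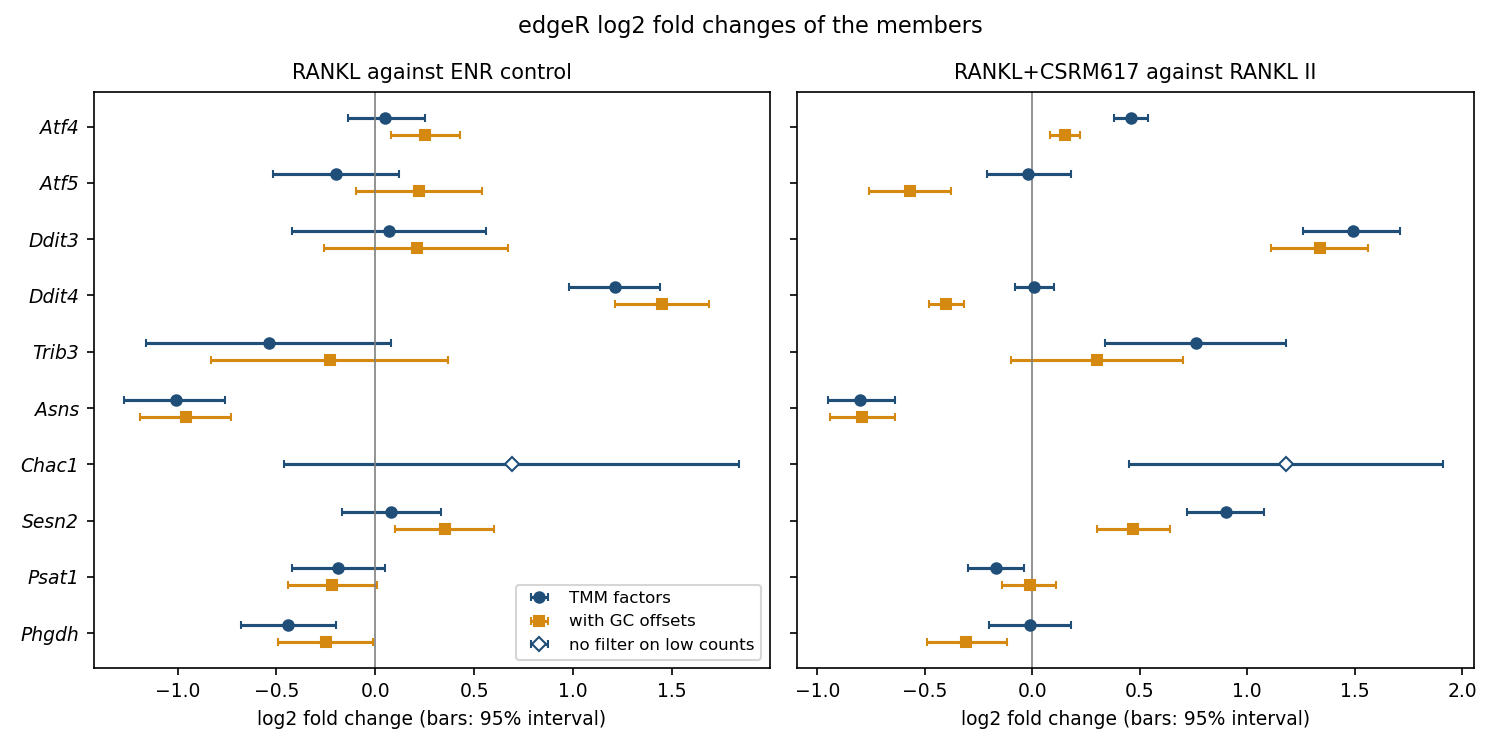
edgeR log2 fold changes (horizontal axes, with the group named first on top of the ratio) with 95% intervals for the 10 genes, from TMM factors and with offsets for transcript GC content. Chac1 is drawn from the fit with no filter on low counts. With GC offsets the interval of Ddit4 stays above 0 for RANKL, that of Ddit3 stays above 0 for CSRM617 and those of Asns stay below 0 in both comparisons.

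Fold changes followed transcript GC content in both tables. With RANKL, the median log2 fold change was 0.63 over 636 genes of at most 40% GC and −0.39 over 520 genes above 60% GC. With CSRM617 the trend ran the other way, at −1.03 over 678 genes of at most 40% GC and 0.55 over 529 genes above 60% GC. The 10 genes have a transcript GC content from 47.3% (Psat1) to 62.8% (Atf5). Offsets that level the GC trend within each library were therefore fitted beside the main values. For RANKL they gave 1.45 for Ddit4 and −0.96 for Asns, while Atf4 at 0.25 (adjusted p = 0.0155) and Sesn2 at 0.35 (adjusted p = 0.021) became called by edgeR. Phgdh, at −0.25 (adjusted p = 0.0736), lost its call, and Atf5 turned to 0.22 (adjusted p = 0.235). For CSRM617 the offsets gave 1.34 for Ddit3 and −0.79 for Asns. Sesn2 remained called at 0.47 (adjusted p = 2.17e-07) and Atf4 at 0.15 (adjusted p = 8.03e-05), each at a smaller size. Trib3 at 0.30 (adjusted p = 0.192) and Psat1 at −0.01 (adjusted p = 0.862) lost their calls. Ddit4 at −0.40 (adjusted p = 5.28e-19), Atf5 at −0.57 (adjusted p = 3.92e-08) and Phgdh at −0.31 (adjusted p = 0.00216) were called lower by edgeR.

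**Figure D3:**
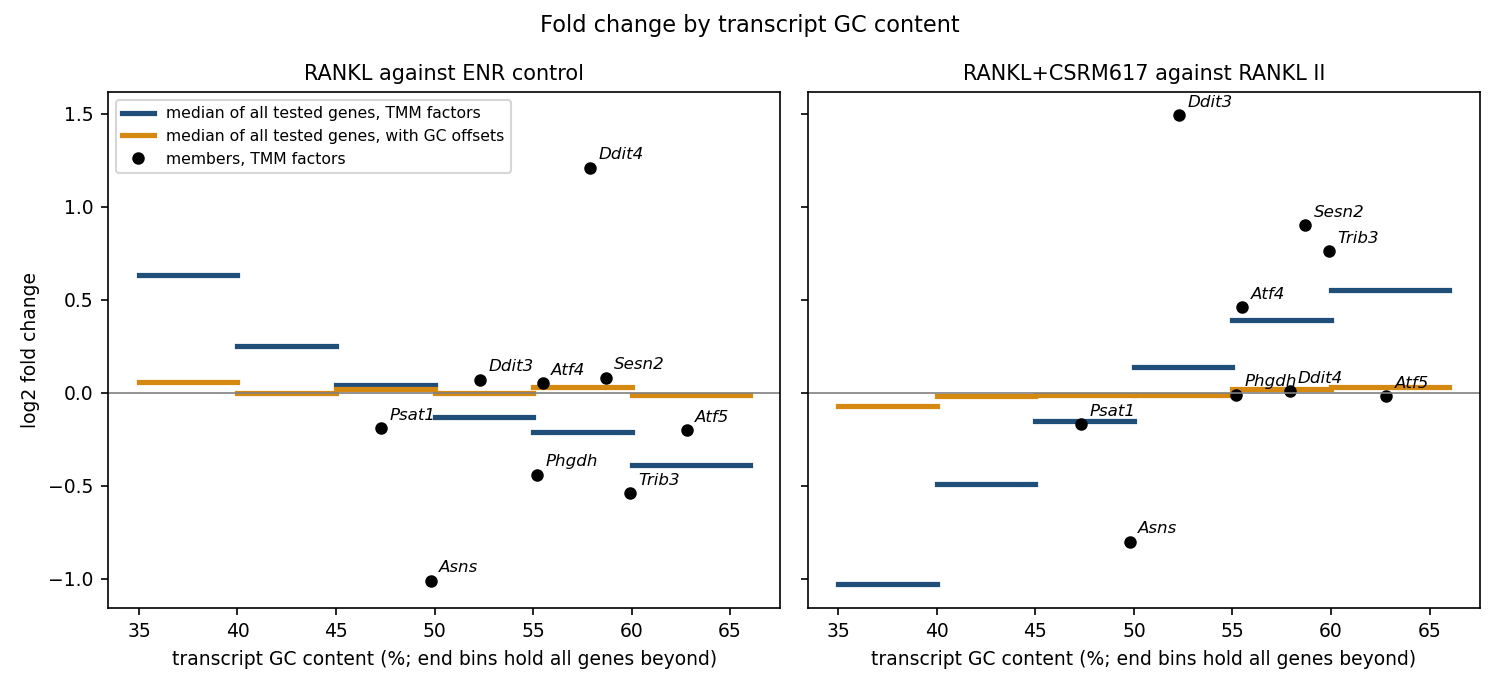
Log2 fold change (vertical axis) against transcript GC content in percent (horizontal axis) for the 9 genes tested (points) in each comparison. Horizontal bars are medians of all tested genes per GC bin, from TMM factors and with GC offsets. The medians fall with GC for RANKL and climb with GC for CSRM617. Ddit4 and Asns for RANKL, and Ddit3 and Asns for CSRM617, lie far from the medians of their bins.

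The 12 libraries were also scaled together to order the groups. The tables were deposited and normalized separately, so this order carries no test across them. Atf4 had 144.3 ± 7.67 CPM in RANKL+CSRM617, 100.2 ± 3.47 CPM in RANKL II, 93.77 ± 9.46 CPM in RANKL and 91.4 ± 5.15 CPM in ENR control (SD, n = 3 each), and the libraries of neighbouring groups overlapped below the first. Ddit3 had 18.81 ± 0.747 CPM in RANKL+CSRM617, and 6.463, 6.329 and 6.276 CPM on average in RANKL II, RANKL and ENR control, which overlapped. Sesn2 had 28.33 ± 2.74 CPM in RANKL+CSRM617, 18.55 ± 0.608 CPM in RANKL, 17.67 ± 0.532 CPM in ENR control and 14.33 ± 1.05 CPM in RANKL II. RANKL and ENR control overlapped there, and RANKL II lay below both.

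Ddit4 had 90.5 ± 3.66, 86.3 ± 1.24 and 84.49 ± 8.5 CPM in RANKL+CSRM617, RANKL II and RANKL, against 36.6 ± 4.11 CPM in ENR control (SD, n = 3 each). All 9 libraries with RANKL were above all 3 without it. Asns had 23.68 ± 1.43 CPM in RANKL, 47.88 ± 7.22 CPM in ENR control, 18.92 ± 0.835 CPM in RANKL+CSRM617 and 31.6 ± 1.49 CPM in RANKL II. Its order from high to low was ENR control, RANKL II, RANKL and RANKL+CSRM617, with no overlap between neighbours. Phgdh had 23.55 ± 2.18 CPM in RANKL, 32.16 ± 2.57 CPM in ENR control, 17.19 ± 0.423 CPM in RANKL+CSRM617 and 16.66 ± 1.6 CPM in RANKL II, of which the last 2 groups overlapped and the others did not. Psat1 had 40.03 ± 5.81 CPM in RANKL, 46.06 ± 1.27 CPM in ENR control, 32.34 ± 0.802 CPM in RANKL+CSRM617 and 34.94 ± 0.73 CPM in RANKL II. The scattered RANKL libraries overlapped both ENR control and RANKL II, and RANKL+CSRM617 lay below the rest. Atf5 had 15.71 and 15.02 CPM on average in RANKL+CSRM617 and RANKL II, which overlapped, above 10.59 CPM in RANKL and 12.23 CPM in ENR control. Trib3 ranged from 4.562 CPM in RANKL+CSRM617 to 2.364 CPM in RANKL, and Chac1 from 1.665 CPM in RANKL+CSRM617 to 0.6359 CPM in ENR control. RANKL and RANKL II had the same labelled treatment, yet their libraries did not overlap for Asns, Phgdh, Sesn2 or Atf5.

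By the profile over 12 libraries, the genes most like Atf4 were Mccc1 (Pearson's r 0.988), Arfgef2 (0.986) and Cyb5r3 (0.979), out of 10823 genes with a mean of at least 5 CPM. Those most like Ddit3 were Ap3d1 (0.984), Atp6v0a2 (0.979) and Hmg20b (0.979). For Trib3 they were Pofut2 (0.914), Ttc17 (0.905) and Bst2 (0.896), and for Psat1 Rfc3 (0.959), Slc25a30 (0.953) and 9330162012Rik (0.950). These coefficients describe 12 libraries that fall into 4 groups and share their GC trends. The leading genes for Atf4 and Ddit3 were likewise highest with CSRM617, for example Ap3d1 at 312 CPM against 158 CPM in RANKL II.

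The genes around these 10 were taken from lists of the pathway. Their counts stand beside the shares over all genes tested. Those were 28.7% called higher and 28.0% lower with RANKL, and 35.2% higher and 36.2% lower with CSRM617. Several of the list counts below are near these shares. Upstream, of 12 tested genes for eIF2, its kinases, its phosphatase subunits and eIF2B, 3 were higher and 3 lower with RANKL. Ppp1r15a, which encodes GADD34, the stress-induced phosphatase subunit that reverses eIF2 phosphorylation, averaged 13.98 ± 1.08 CPM with RANKL and 7.571 ± 1.28 CPM in ENR control (log2 fold change 0.89). Eif2ak4, the GCN2 gene, averaged 34.64 ± 1.03 CPM with RANKL and 54.33 ± 1.42 CPM in ENR control (−0.65), and Eif2b1 had a log2 fold change of −0.72. Eif2ak2, the PKR gene, was called higher at 0.35, but not with GC offsets (0.22, adjusted p = 0.151) nor without the second or the third ENR control library or the third RANKL library (adjusted p from 0.0848 to 0.0922). Eif2ak1 (HRI) at 0.17, Eif2ak3 (PERK) at 0.19 and Ppp1r15b, the constitutive phosphatase subunit, at 116.5 CPM in both groups were not called. With GC offsets Eif2ak1 at 0.27 and Eif2ak3 at 0.33 were called, and Eif2ak1 was also called without the second ENR control library (0.30).

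With CSRM617, 7 of the same 12 genes were called higher and 3 lower, against 35.2% and 36.2% of all genes tested. With GC offsets 6 were higher and 1 lower. Ppp1r15a averaged 35.53 ± 3.52 CPM with CSRM617 and 17.79 ± 1.71 CPM in RANKL II (log2 fold change 1.00). Eif2ak3 averaged 41.44 ± 2.6 CPM and 28.41 ± 0.84 CPM in the same order (0.55), and Ppp1r15b had a log2 fold change of 0.33. Eif2s1, which encodes the phosphorylated subunit of eIF2, averaged 40.42 ± 0.544 CPM with CSRM617 and 72.7 ± 4.25 CPM in RANKL II (−0.85). Eif2ak1 was called at 0.18 and Eif2ak2 at −0.14, of which the first lost its call with GC offsets (0.10) and the second turned to 0.15. The call of Eif2ak2 was also lost without the third RANKL II library or either of the first 2 CSRM617 libraries (adjusted p from 0.062 to 0.0817), and with DESeq2 (0.114). Eif2ak4 at 0.13 was not called, but was at 0.16 without the first RANKL II library or the second CSRM617 library.

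Among bZIP partners and relatives of ATF4, 3 of 11 tested genes were higher and 3 lower with RANKL, and 5 of 12 were higher and 4 lower with CSRM617. Atf3, a stress-induced factor downstream of ATF4, had 45.66, 41.13 and 41.14 CPM in RANKL+CSRM617, against 7.356, 7.418 and 8.329 CPM in RANKL II. Its log2 fold change was 2.45 (SE 0.0896, adjusted p = 7.32e-27 by edgeR), larger than that of any of the 9 genes. With RANKL, Atf3 averaged 1.661 ± 0.427 CPM and 2.491 ± 0.925 CPM in ENR control and was not called, except without the second ENR control library (log2 fold change −0.86, adjusted p = 0.0463 by edgeR). Cebpg, whose protein pairs with ATF4, had a log2 fold change of 0.63 with RANKL and of −0.80 with CSRM617. Cebpb, another partner, was lower with RANKL at −0.78 and higher with CSRM617 at 0.69, and both calls were lost with GC offsets (−0.13 and −0.02). Nfe2l2, the NRF2 gene, was higher in both comparisons, at 0.54 with RANKL and 0.71 with CSRM617.

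Of 13 enzymes of serine, glycine, proline and one-carbon metabolism, 0 were higher and 8 lower with RANKL, and 3 were higher and 3 lower with CSRM617. The lower ones with RANKL included Cbs, the first enzyme of transsulfuration, at 1.006 ± 0.459 CPM against 26.56 ± 1.36 CPM in ENR control (log2 fold change −4.69). They also included the folate enzyme genes Mthfd1 at −0.94, Shmt1 at −0.83 and Shmt2 at −0.63. The median log2 fold change of the 13 was −0.50 with TMM factors and −0.37 with GC offsets, which called 1 higher and 8 lower. Proliferation markers summed to 1065 to 1302 CPM with RANKL, against 1592 to 1649 CPM in ENR control, and their part in this result was not tested. With CSRM617, Aldh18a1, a proline synthesis gene, was higher at 0.58 and Mthfd1l at 0.46, while Shmt1 at −0.55 and Glul, the glutamine synthetase gene, at −0.36 were lower. With GC offsets 4 were higher and 8 lower.

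Of the amino acid transporter genes, 3 of 9 tested were higher and 5 lower with RANKL, and 3 of 8 were higher and 2 lower with CSRM617. With RANKL, Slc38a2, a neutral amino acid transporter induced by starvation, had a log2 fold change of 1.23, against −1.21 for the glutamine transporter gene Slc1a5, −1.62 for Slc43a1 and −0.81 for Slc7a5. Slc7a11, the cystine transporter gene, averaged 4.514 ± 0.0673 CPM with CSRM617 and 15.23 ± 0.392 CPM in RANKL II (−1.75). Slc1a4, another neutral amino acid transporter gene, had −0.52 with CSRM617, and Slc3a2, which encodes the partner chain of Slc7a5 and Slc7a11 proteins, had 0.41, a call lost with GC offsets (0.11). With the offsets 1 of the 8 was higher and 4 lower with CSRM617. Of 13 aminoacyl-tRNA synthetase genes, 4 were higher and 2 lower with RANKL. With CSRM617, 10 were called higher and 2 lower, with a list median of 0.25, and with GC offsets 9 were higher and 0 lower. Aars had a log2 fold change of 0.96, Cars of 0.91, Yars of 0.62 and Vars of 0.59 with CSRM617. With RANKL, Aars had 0.46, Lars 0.29, Tars 0.29 and Wars −0.74, of which Tars lost its call without the first RANKL library (0.24, adjusted p = 0.0624).

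Of 17 other reported ATF4 and CHOP targets, 11 were higher and 4 lower with RANKL, and 8 were higher and 5 lower with CSRM617. With RANKL, Pmaip1, which encodes the cell death protein NOXA, averaged 113 ± 5.87 CPM and 16.36 ± 2.23 CPM in ENR control (log2 fold change 2.77). Ero1l, an oxidase of the endoplasmic reticulum, had 1.99, the death receptor gene Tnfrsf10b 1.18 and Bcl2l11, the BIM gene, 1.03. Bcl2l11 was lower with CSRM617 at −1.34, as was Pmaip1 at −0.64, which was −0.04 and not called with GC offsets. Vegfa, at 0.91, and the mitochondrial protease gene Lonp1, at 0.56, were higher with CSRM617. The median of the 17 with CSRM617 was 0.15, and with GC offsets it was −0.04, with 6 higher and 6 lower.

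Some of these genes also answer to other pathways, so lists for those were counted beside them. All 8 p53 targets were called higher with RANKL, with a median of 1.97. Of 8 hypoxia response genes, 7 were higher and 1 lower with RANKL, with a median of 1.84. Ddit4 is itself a known target of p53 and of hypoxia signalling, and Sesn2 and Pmaip1 of p53, and the part of these pathways in their levels was not tested. With CSRM617, 4 p53 targets were higher and 4 lower, and 3 of 8 hypoxia genes were higher and 1 lower, which became 0 higher and 5 lower with GC offsets. Trp53inp1 had a log2 fold change of 2.63 with RANKL and of −1.40 with CSRM617. Of 8 NRF2 targets, 5 were higher and 1 lower in each comparison. With GC offsets this held for RANKL, while for CSRM617 4 were higher and 2 lower. Their median with CSRM617 was 0.36 with TMM factors and 0.12 with the offsets.

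In the parallel branches of the unfolded protein response, which run through ATF6 and XBP1, 14 of 16 genes were called higher and 1 lower with CSRM617. Hspa5, the chaperone gene of BiP, averaged 447.6 ± 7.59 CPM with CSRM617 and 291 ± 5.98 CPM in RANKL II (log2 fold change 0.62). Calr had 0.96, Creld2 1.18 and Hyou1 0.93. The list median was 0.41 with TMM factors and 0.48 with GC offsets, which called 13 higher and 2 lower. With RANKL, 3 of the 16 were higher and 5 lower. Ern2, an epithelial stress sensor of the IRE1 family, fell to 13.57 ± 2.66 CPM with RANKL, against 72.43 ± 17 CPM in ENR control (−2.39), and Xbp1 had −0.79. Paneth cell markers, which come from secretory cells, summed to 380 to 395 CPM with RANKL, against 542 to 924 CPM in ENR control. With CSRM617 they summed to 884 to 906 CPM, against 562 to 576 CPM in RANKL II. Of these 8 markers, 7 were called lower with RANKL, at a list median of −1.92. The other, Mmp7, was called higher and made up much of the RANKL sum (251.2 CPM against 57.19 CPM in ENR control). With CSRM617, 7 were called higher and 1 lower. Goblet cell markers, also of secretory cells, summed to 2014 to 2876 CPM with RANKL, against 1121 to 1171 CPM in ENR control, and to 3962 to 4142 CPM with CSRM617, against 2977 to 3068 CPM in RANKL II. The goblet cell markers were split, as 4 of the 8 were called higher and 3 lower in each comparison. Their median log2 fold change was 0.87 with RANKL and 0.12 with CSRM617. With GC offsets 4 were higher and 4 lower with CSRM617. The part of secretory cells in these levels was not tested.

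**Figure D4:**
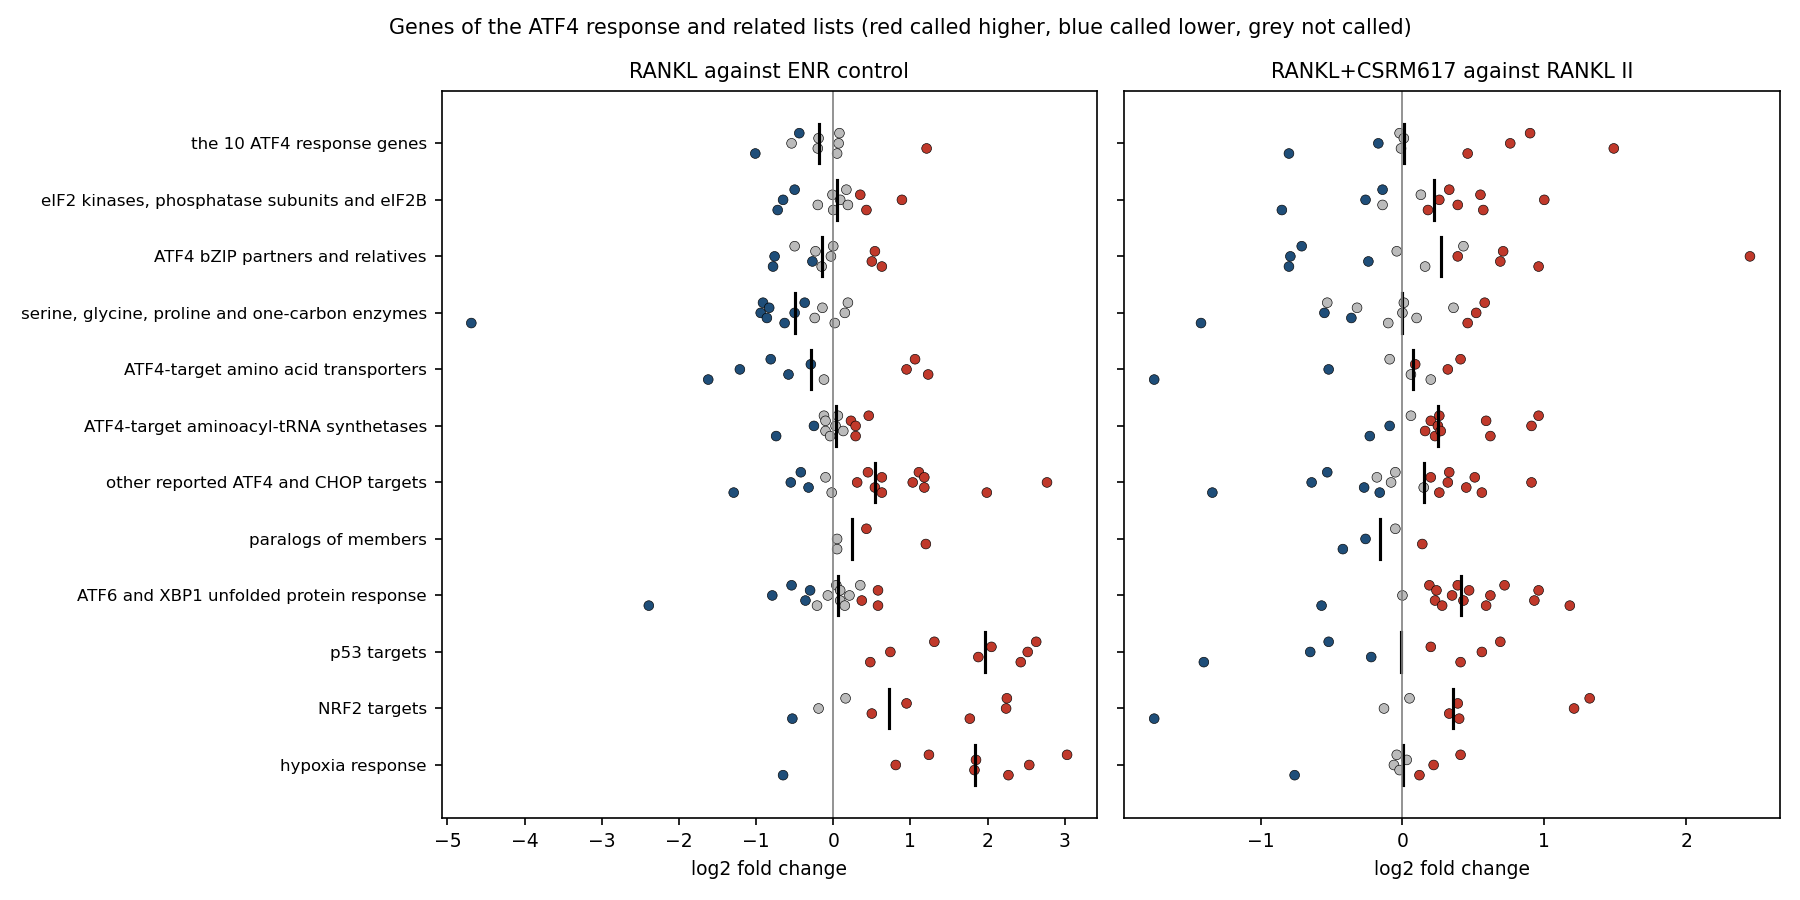
Log2 fold change (horizontal axis) of each tested gene in the 10-gene set and the lists around it, with a vertical bar at the list median. Red points were called higher, blue points lower and grey points not called, at an adjusted p under 0.05 by edgeR. With CSRM617, 14 of 16 genes of the ATF6 and XBP1 list and 10 of 13 aminoacyl-tRNA synthetase genes are red, and with RANKL all 8 p53 targets are red.

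Of the paralogs of the 10 genes, 4 could be tested, of which 2 were higher and 0 lower with RANKL, and 1 was higher and 2 were lower with CSRM617. Chac2, the paralog of Chac1, averaged 5.554 ± 0.681 CPM with RANKL and 2.576 ± 1.15 CPM in ENR control (log2 fold change 1.20), a call lost with GC offsets (0.70, adjusted p = 0.0546). With CSRM617 it had −0.42, which turned to 0.43 with the offsets and lost its call without the second RANKL II library or either of the first 2 CSRM617 libraries (adjusted p from 0.0656 to 0.152), and with DESeq2 (0.168). Sesn1 and Sesn3, relatives of Sesn2, had 0.05 each with RANKL and were not called, and had −0.26 and 0.14 with CSRM617. With GC offsets Sesn1 at −0.09 lost its call. Sesn3 lost its call without the first or second RANKL II library or without the first or the third CSRM617 library (adjusted p from 0.0598 to 0.17), and with DESeq2 (0.142), upper-quartile factors (0.151) and a stricter filter (0.104). Trib1, a relative of Trib3, had 0.43 with RANKL and −0.05 with CSRM617, the second not called except with GC offsets (−0.28, adjusted p = 2.48e-07 by edgeR). Trib2 and Ddit4l fell below the filter on low counts in both comparisons.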

How the data were processed

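RNA-seq was analysed from 12 libraries in 4 groups of 3, made per the labels from ribosome-depleted total RNA. The authors deposited raw counts per gene symbol in 2 tables, made with STAR on mm10 (GRCm38) and HTSeq 0.13.5 per the submitters' processing notes, which also name DESeq2 1.34.0. The deposited normalized tables hold log2 values, by their range, and served only as an alternative. Neither the annotation nor the strand setting is stated. All columns were used, and 109 repeated symbols were kept as separate entries.

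Each table was tested on its own with edgeR 4.0.16 in R 4.3.3 (robust quasi-likelihood fit, filterByExpr, TMM), without covariates. Adjusted p-values under 0.05 were called. SE values were derived from the unshrunken log2 fold change and the F statistic. RPKM used exon lengths of GENCODE vM21, and GC offsets a lowess curve with span 0.3. Code was tested on simulated data. Total counts of 5795541 to 14041947 limit precision for Chac1 and Trib3.

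Named were all 10 genes, up to 4 called genes per pathway list with the smallest p, paralogs, eIF2 kinases and a few regulators. Members and lists were chosen with earlier results of these data known. The alternatives, all planned, were other scalings and filters, DESeq2 1.42.0, limma 3.58.1 on the deposited log2 tables, the replicate block, GC offsets, removal of ribosomal RNA loci and mitochondrial genes, and leaving out each library.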

Additional observations from a re-analysis of the deposited data

How the results depend on the processing

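The calls for Ddit4 and Asns with RANKL, and for Ddit3, Sesn2, Atf4 and Asns with CSRM617, kept their direction and side of the threshold under every other setting tried and with every library left out in turn. GC offsets, alone or with the replicate block, changed the counts of the 10 genes called. With RANKL they gave 3 called higher and 1 called lower, and with CSRM617 4 called lower. DESeq2 gave 1 called lower with CSRM617. Leaving out 1 library gave 6649 to 8200 genes called with RANKL and 9499 to 10121 with CSRM617, and 1 to 2 of the 10 genes called lower with CSRM617. The replicate block gave 7701 and 10095 genes called and, on its own, changed no call of a gene named in the text. The labels number the experiments in each group without saying that a number marks a shared batch or day. Deviations of same-numbered libraries correlated at 0.0184 to 0.137 for RANKL, where not every library correlated best with its own number. For CSRM617 they correlated at 0.0241 to 0.0585, and every library correlated best with its own number. With values this small and 3 libraries per group, these correlations cannot show whether the numbers mark a pairing.

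Some signs turned, both of values near 0 and, with GC offsets for CSRM617, of larger ones, and the cause was not tested. With RANKL, Atf5 was 0.22 with GC offsets and 0.23 with the block added, and left-out libraries gave a range of −0.20 to 0.33 for Ddit3, −0.04 to 0.10 for Atf4 and −0.03 to 0.02 for Ppp1r15b. Ppp1r15b was 0.00 with DESeq2, RLE factors, limma and without ribosomal RNA loci and mitochondrial genes, and 0.02 with a stricter filter. With CSRM617, Atf5 was 0.00 with DESeq2 and limma and −0.08 to 0.04 over left-out libraries, Phgdh −0.09 to 0.06 and Ddit4 −0.01 to 0.04. Ddit4 was −0.04 with upper-quartile factors, −0.02 with a stricter filter and −0.40 with GC offsets, with or without the block. GC offsets, without and with the block, also turned Chac2 to 0.43 and 0.42, Eif2ak2 to 0.15 and 0.15, Cebpb to −0.02 and −0.03, Srxn1 to −0.07 and −0.06, Ccng1 to 0.37 and 0.37, Ndrg1 to −0.04 and −0.04, and Car9 to −0.20 and −0.20. Without offsets, left-out libraries gave −0.65 to −0.63 for Ccng1 and 0.38 to 0.43 for Srxn1. For Ndrg1 they gave 0.21 to 0.24, and for Car9 0.12 to 0.14. With the offsets alone, edgeR called Chac2 (adjusted p = 0.0224), Eif2ak2 (0.00576) and Ccng1 (0.000878) higher and Car9 (3.55e-07) lower with CSRM617. Each of these calls was opposite to the call without offsets. Counts of 24 or fewer per library limit Chac1. With all libraries it was tested without the filter on low counts, by DESeq2 and by limma on the deposited log2 tables. Limma gave 0.21 on that scale with CSRM617 (adjusted p = 0.00457) and 0.10 with RANKL (adjusted p = 0.349), and DESeq2 0.63 with RANKL (adjusted p = 0.611).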
